A study of Mus musculus with 6 samples.

Results

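Caloric restriction (CR) begun late in life was examined by comparing the array of a CR pool with that of its free-fed (AL) control, both from mice of 22 months. The comparison took every probe that is not a control and that the scanner software marked as well above background on both arrays, which left 22287 genes of the 32451 on the array. Both pools came from C57BL/6J male mice that were caged individually from 19 months of age. The pool labelled Old_AL held ventricular tissue of mice fed ad libitum for a further 12 weeks, and the pool labelled Old_CR that of mice given 10% less food in week 1, 25% less in week 2 and 40% less for the remaining 10 weeks, or 60% of the AL intake. Tissue of each group was mixed in equal amounts before RNA was isolated, so each group was 1 RNA sample on 1 array, of 6 arrays in the series. There were no replicates and the difference between the diets was not tested, because a difference between 1 pool and another also holds the spread between mice and between RNA preparations. Pools of mice that began the same diets at 12 months and were examined at 15 months, Adult_AL and Adult_CR, served only as a reference level, and they lay on the other of 2 slides, so age and slide cannot be told apart. The study asked whether CR acts on the heart in the same way when it is begun at different ages.

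CR lowers the supply of glucose and insulin and shifts the heart, which burns mainly fatty acids in its mitochondria, further toward fat. In the ageing heart, CR is known for limiting fibrosis, the deposit of collagen between the muscle cells, and for preserving mitochondrial function. Male germ cells, which are no part of the heart, use their own versions of many housekeeping proteins and pack the DNA of the sperm head with transition proteins and protamines.

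A level below is the log2 of the processed signal relative to the 75th percentile of its array, which was 299 signal units in Old_AL and 266 in Old_CR. A difference is Old_CR minus Old_AL on the log2 scale, and a gene was called higher or lower at a fold of 2 or more, the size the study used. In Old_CR, 424 genes were higher, 1.90% of those measured, and 889 were lower, 3.99%. The falls outnumbered the rises and were larger. A fall of 3-fold or more was found for 229 genes and a rise of that size for 25. A fall of 8-fold or more was found for 7 genes and a rise of that size for 2. The median difference over all genes was 0.11, with an SD over genes of 0.49. Lower genes made up 67.7% of the calls, and 78.4% when that median was subtracted first. The error given after a difference is the spread of replicate spots on the arrays, 0.21 for the median gene, and it covers the spots only. Of the lower genes, 733 carried a RefSeq symbol, against 253 of the higher genes. These were 4.75% and 1.64% of the 15431 measured genes with a symbol. Of the 6856 measured genes without one, 156 were lower (2.28%) and 171 higher (2.49%), so there the falls did not outnumber the rises. Of 3723 genes read by several probes, every probe was 2-fold lower for 62 (1.67%) and 2-fold higher for 6 (0.161%).

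**Figure D1:**
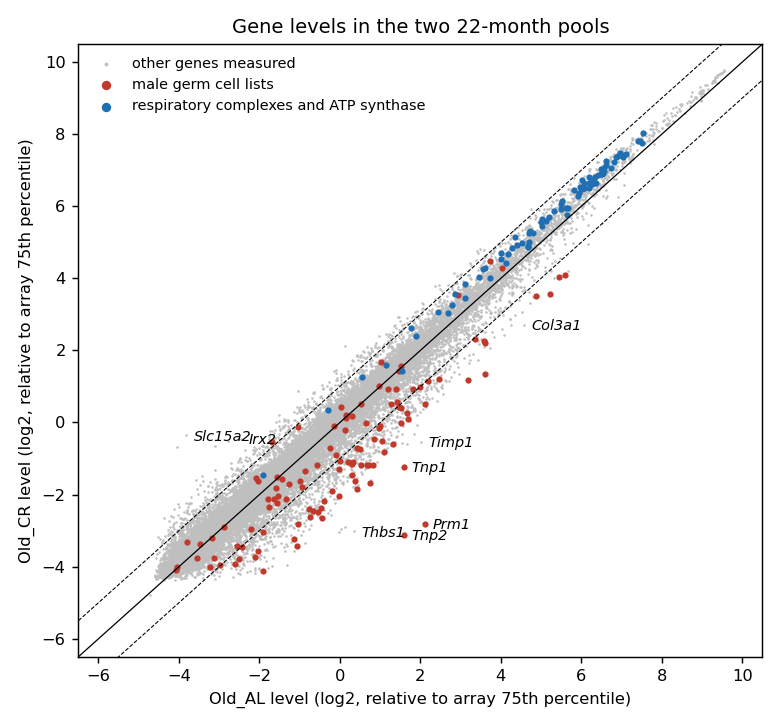
Level of each of 22287 genes in the AL pool (x axis) and the CR pool (y axis) of 22 months, both log2 relative to the 75th percentile of the array, with 1 point for each gene. The solid line marks equal levels and the dashed lines a 2-fold difference. The male germ cell lists (red) spread below the lower dashed line, where 60 of their 113 members lie, and the respiratory complexes and ATP synthase (blue) run along and just above the solid line, with 80 of 81 members above it.

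Genes of sperm formation were the 2 largest falls and several of those that followed. Prm1, the protamine that packs sperm DNA, was at 2.12 in Old_AL and -2.81 in Old_CR, 30.6-fold lower (-4.93 ± 0.21). Tnp2, a transition protein that comes before the protamines on the DNA, was at 1.58 and -3.12, 26.0-fold lower (-4.70 ± 0.21). Its partner Tnp1 was at 1.58 and -1.23, 7.02-fold lower (-2.81 ± 0.10). For all 3 genes both 15-month arrays lay between the 22-month pools. Prm1 was at -0.49 in Adult_AL and -2.34 in Adult_CR, Tnp2 at -0.77 and -2.74, and Tnp1 at 0.05 and -1.05. The AL pool was thus the higher one at both ages, and Old_AL was the highest of the 4.

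The start regions of these 3 genes are shown because they fell together. Each run spans the annotated start, with most of it upstream, in RefSeq, build GRCm38.p6, read 5′ to 3′ on the gene's strand, here the minus strand for all 3. Prm1 lies at chr16:10796774-10797073, Tnp1 at chr1:73015850-73016149 and Tnp2 at chr16:10788606-10788905. Capitals mark matches to TGANNTCA, which reads the same on both strands and includes TGACGTCA, the cyclic AMP response element that the spermatid factor CREM is known to bind.
Prm1: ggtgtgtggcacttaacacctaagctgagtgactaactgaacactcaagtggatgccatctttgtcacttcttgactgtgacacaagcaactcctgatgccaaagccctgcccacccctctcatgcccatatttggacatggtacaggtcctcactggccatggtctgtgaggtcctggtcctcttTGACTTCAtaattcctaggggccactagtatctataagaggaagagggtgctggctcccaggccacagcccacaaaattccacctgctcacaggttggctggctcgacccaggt
Tnp1: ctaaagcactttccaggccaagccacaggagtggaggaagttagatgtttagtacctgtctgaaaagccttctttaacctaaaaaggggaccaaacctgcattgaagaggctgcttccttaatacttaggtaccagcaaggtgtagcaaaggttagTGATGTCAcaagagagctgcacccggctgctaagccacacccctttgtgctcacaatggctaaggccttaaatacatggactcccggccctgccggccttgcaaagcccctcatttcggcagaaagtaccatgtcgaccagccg
Tnp2: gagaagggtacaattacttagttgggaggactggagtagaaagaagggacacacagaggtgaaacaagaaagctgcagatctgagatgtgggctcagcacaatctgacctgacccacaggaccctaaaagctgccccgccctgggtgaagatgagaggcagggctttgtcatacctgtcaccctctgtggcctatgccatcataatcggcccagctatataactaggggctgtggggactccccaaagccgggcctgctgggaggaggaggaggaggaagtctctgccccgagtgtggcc
Prm1 and Tnp1 held 1 match each and Tnp2 none. The letters were chosen after these sequences had been seen. Taking the first listed start of each gene, the motif stood in 17 of the 36 spermatid genes that were lower and had an entry (47.2%) and in 29 of the 60 measured (48.3%). It stood in 11.1% of the 12265 measured genes with an entry and in 14.3% of all 27025 starts. The exact element TGACGTCA was in 1 of the 36 (2.78%) and in 2.89% of the measured genes, and its shorter core, TGACG, which overlaps it, in 27.8% and 28.2%. A match is a string of letters and was not tested for binding.

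The wider list of spermatid genes moved the same way. Of 83 listed, 73 were measured, and 44 of these were lower in Old_CR and 1 was higher, against 3.99% and 1.90% of all genes. Their median difference was -1.29, a fold of 2.45. The largest falls after the DNA-packing genes were in Ropn1, an anchoring protein of the sperm tail, which was at 0.76 in Old_AL and -1.67 in Old_CR, and Oaz3, the testis antizyme that restrains polyamine synthesis, at -1.06 and -3.42. Gsg1, a membrane protein of germ cells, was at 3.61 and 1.34, and Tssk2, a kinase of late spermatids, at 0.42 and -1.84. Smcp, of the mitochondrial capsule of sperm, was at 3.17 and 1.18. The exception, Hils1, a spermatid linker histone, was at -1.68 in Old_AL and -0.54 in Old_CR. Spaca1, of the acrosome membrane, and Cabyr, a calcium-binding protein of the tail, were 3.99-fold and 3.79-fold lower, with each of their probes past 2-fold. Under the other scalings, filters and background corrections tried, the median of the list stayed between -1.39 and -0.79. In a bulk pool, fewer cells of a type, less RNA in each cell and less RNA from male reproductive tissue cannot be told apart.

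Earlier germ cells and the cells around them gave lower counts. Of 40 measured genes of spermatocytes and spermatogonia, 16 were lower and none was higher, with a median of -0.86. Ccna1, the cyclin of male meiosis, fell from 0.37 to -1.63, and Adam2, a sperm surface protein first made in spermatocytes, from 2.11 to 0.52. Sycp3, of the axis of paired chromosomes, fell from 4.86 to 3.51, Ddx4, the germ line RNA helicase, from 3.57 to 2.26, and Dazl, a germ line RNA-binding protein, from 0.85 to -0.47. Of the 13 measured of 28 listed genes of Sertoli cells, Leydig cells and epididymis, 3 were lower and 10 were not called, with a median of -0.08. The 3 were Rhox5, Cst8 and Spink2. Rhox5, a homeobox gene of Sertoli cells and epididymis, fell by 3.00 (1.87 to -1.13), and Cst8, an epididymal cystatin, by 1.40. As an acrosomal protease inhibitor, Spink2, which fell by 1.37, belongs with the germ cell genes although it stands in this list. In that list 11 genes were above background on neither array. Together the 2 germ cell lists held 6.75% of all falls and 0.51% of the genes measured, and without them 829 genes were lower, 3.74% of the rest.

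Of 4 lists added after the falls had been seen, those named for testis, sperm or the axoneme held more lower than higher genes. RIKEN clones named after adult testis libraries were lower in 37 of 192 cases and higher in 6, and clones from other libraries lower in 6 of 269 and higher in 6. The median of the testis clones was -0.02 and changed sign with the setting, from -0.05 to 0.09. Gene families named for testis or sperm were lower in 55 of 145, and families of the axoneme, the core of cilia and of the sperm tail, in 29 of 88, with medians of -0.59 and -0.45. Among the latter, Cfap52, a part of the axonemal microtubules, fell by 1.69. Dnaic2, a chain of the dynein motor, fell by 1.80. Outside these families, Foxj1, the master regulator of motile cilia, was dim and fell by 1.97 ± 0.44. These lists were chosen from the same arrays and overlap with the spermatid genes, so their counts are no separate evidence.

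In pairs of a testis and a somatic version of a protein, it was mostly the testis gene that was lower in Old_CR. Of 29 measured pairs, the testis gene was lower in 20 and higher in none, and the somatic gene was lower in 2 and higher in 1. The median difference was -1.27 for the testis genes and 0.16 for the somatic genes, and the testis member was the lower of the pair in 25 of 29. Gapdhs, the glycolytic enzyme anchored in the sperm tail, fell by 2.18, and Gapdh differed by 0.33. Pgk2 differed by -1.75 and Pgk1 by 0.69. Pdha2 differed by -1.39 and Pdha1, of the pyruvate dehydrogenase complex, by 0.63. Ldhc differed by -1.14 and Ldhb by 0.52. Slc25a31 and Slc25a4, which carry ADP and ATP across the inner mitochondrial membrane, differed by -1.27 and 0.46. The exceptions were Rpl39l, Ppp3r2, Cstf2t and Taf7l, which differed by 0.93, 0.57, 0.26 and 0.26. The pairs were listed after the germ cell falls had been seen, and copies this alike can share signal on a probe.

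**Figure D2:**
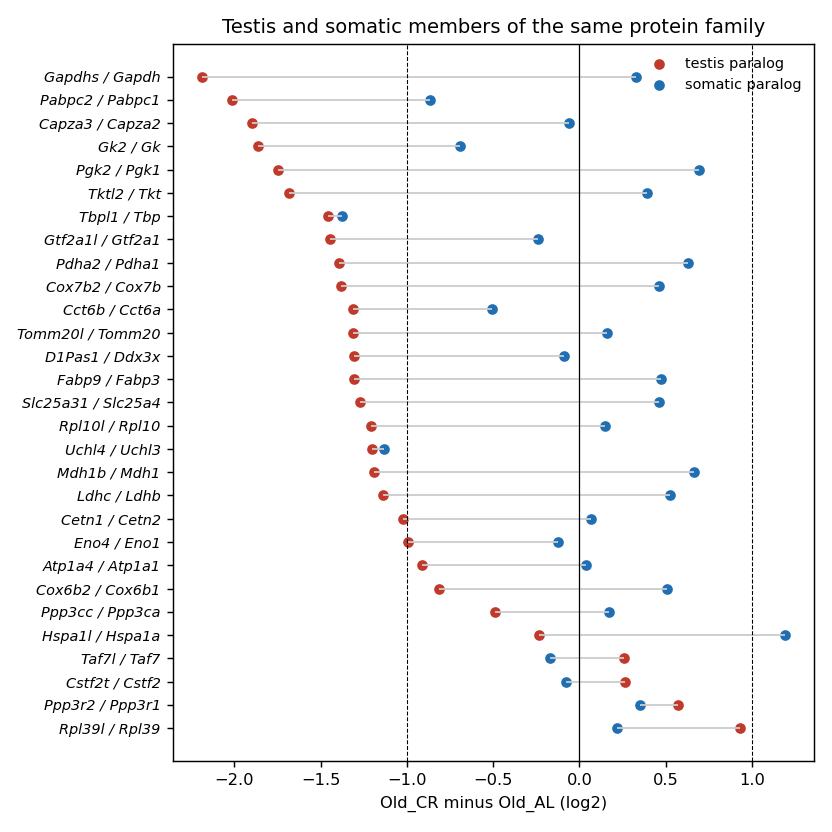
Difference between the CR and AL pools of 22 months (log2, x axis) for the testis member (red) and the somatic member (blue) of 29 protein pairs, 1 pair in each row, with dashed lines at 2-fold. The red points lie left of their blue partners in 25 of 29 rows, and 20 of them lie past the dashed line on the left.

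Against the 15-month arrays the AL pool was the one that stood apart for these genes. Of 64 spermatid genes above background on all 4 arrays, Old_AL was above both 15-month pools in 60 and the highest of the 4 in 54. It was above both by 2-fold or more in 30. Old_CR was within the 15-month range for 25, below it for 17 and above it for 22. The summed level of the 64 genes was 101 in Adult_AL, 73.8 in Adult_CR, 206 in Old_AL and 84.7 in Old_CR, in units of the 75th percentile. Old_AL had the highest sum. Adult_AL was above Adult_CR in 50 of the 64, with a median difference between CR and AL of -0.57 at 15 months. For 38 genes Old_AL ranked first and Adult_AL second. The 11 Sertoli, Leydig and epididymis genes summed to 13.6, 9.29, 31.5 and 15.6 in the same order. A sum weighs the bright members most. The median difference of that list at 22 months was -0.08, with 6 of the 13 measured above 0. The part of RNA from male reproductive tissue in the falls was not tested.

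Of the falls as a whole, too, more had Old_AL alone standing apart than Old_CR alone. There were 751 lower genes above background on all 4 arrays. Old_AL alone lay 2-fold or more outside the 15-month range for 309 (41.2%) and Old_CR alone for 6 (0.80%). Both did for 9 (1.20%) and neither for 427 (56.9%). The median level of the 751 genes relative to the mean of the 15-month arrays was 1.28 in Old_AL and -0.12 in Old_CR. Over all 19920 such genes, Old_AL alone lay outside for 3.22%, Old_CR alone for 2.13%, both for 1.88% and neither for 92.8%. Counted whether or not the other pool also stood apart, Old_AL was 2-fold above both 15-month arrays for 3.64% and below both for 1.47%. The shares for Old_CR were 3.33% and 0.683%. The lower genes also stood lower in the CR pool at 15 months in 92.7% of cases, with a median of -0.68, against 40.2% of the genes not called. The comparisons at 15 and at 22 months share no array. For the 293 higher genes, Old_CR alone stood apart for 101 (34.5%) and Old_AL alone for 26 (8.87%). Both did for 107 (36.5%) and neither for 59 (20.1%). Medians of the higher genes relative to 15 months were 2.02 in Old_CR and 0.74 in Old_AL, so both 22-month arrays read above the 15-month level.

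**Figure D3:**
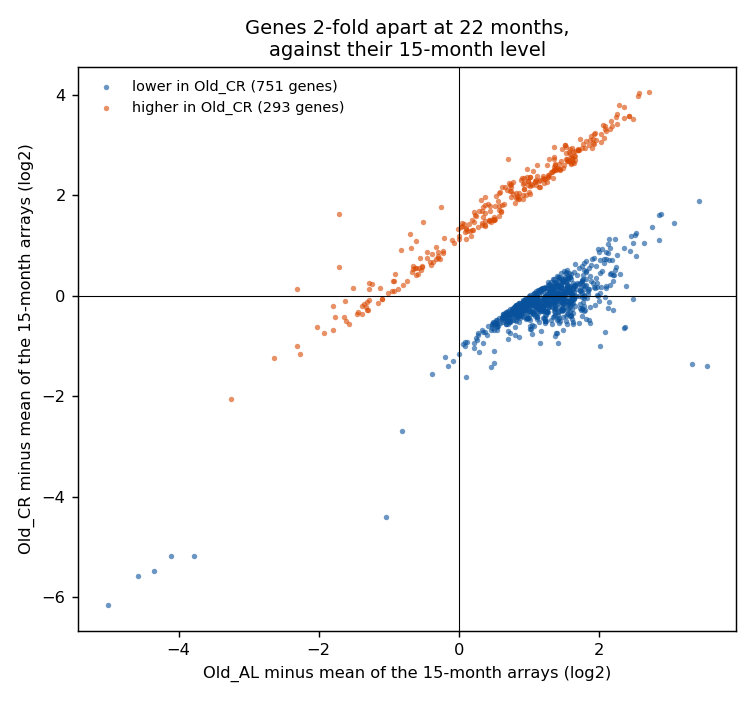
Genes called at 22 months and above background on all 4 arrays, with the level of the AL pool (x axis) and the CR pool (y axis) relative to the mean of the 15-month arrays, in log2, 1 point for each gene. The 751 lower genes (blue) centre at 1.28 on the x axis and -0.12 on the y axis, and the 293 higher genes (orange) at 0.74 and 2.02.

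A few matrix genes were also among the largest falls. The matrix glycoproteins had 3 lower of 42 (7.14%) and a median of -0.06. The matrix proteases and inhibitors had 1 lower of 19 (5.26%) and a median of 0.04. Of all genes, 3.99% were lower. Thbs1, a matrix protein released by platelets and stressed cells, was at 0.36 in Old_AL and -3.02 in Old_CR, 10.4-fold lower (-3.37 ± 0.21). Spon2, a secreted matrix protein, was at 0.13 and -2.91, 8.20-fold lower. Timp1, an inhibitor of matrix proteases, was at 2.02 and -0.54, 5.91-fold lower. The pool that stood apart was not the same for each. Timp1 was at -0.40 and -0.54 at 15 months, so Old_AL was the high array. Thbs1 was at 3.30 in Adult_AL and -0.51 in Adult_CR, a difference larger than that at 22 months, and Old_CR lay below both. The platelet marker list, summed over 12 genes, was at 205 in Adult_AL and 18.02 in Adult_CR, and at 21.1 in Old_AL and 22.2 in Old_CR. Its part in the Thbs1 reading was not tested.

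Of the fibrillar collagens, which form the bulk of scar, 3 of 8 measured were lower (37.5%, against 3.99% of all genes) and none higher. Col3a1 was at 4.58 in Old_AL and 2.71 in Old_CR (-1.87 ± 0.13), Col1a1 at 4.72 and 3.30 (-1.42 ± 0.13), and Col5a3 at 1.22 and 0.11 (-1.11 ± 0.10). Col1a2, the partner chain of Col1a1, differed by -0.72 and Col5a1 by -0.29. The remaining 3 stood higher in Old_CR by less than 2-fold, Col5a2 by 0.44, Col11a2 by 0.55 ± 0.27 and Col27a1 by 0.80 ± 0.44. The list's median was -0.51, and it ranged from -0.72 to -0.04 over the settings tried. Here Old_CR was below both 15-month arrays for 5 of 7 genes, but by 2-fold or more for none. The CR pool was the higher one at 15 months, with a median of 0.52. The basement membrane and microfibrillar collagens had 1 higher and none lower of 14, with a median of -0.44. Col4a1 and Col4a2, of the basement membrane around muscle cells, differed by -0.98 and -0.80, and Col6a5 was higher by 1.35. Collagen processing enzymes had no call among 20, and the ligands, receptors and SMADs of TGF-beta, which drives fibroblasts to make collagen, none among 37. Cilp, a matrix protein of fibroblasts, was 2.14-fold lower. Markers of fibroblasts other than collagens were not called, and the list of 15 had 2 lower, both collagens, with a median of -0.02.

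The genes that make ATP stood higher in Old_CR by small and even amounts. Of 81 measured subunits of complexes I to IV and ATP synthase, 80 were above 0 and 79 above the median of all genes, none reached 2-fold, and the median was 0.47, a fold of 1.38. The medians were 0.45 for the 37 genes of complex I, 0.67 for the 4 of complex II, 0.52 for the 9 of complex III, 0.47 for the 14 of complex IV and 0.47 for the 17 of ATP synthase. Among all genes, 62.9% were above 0. Sdhd and Sdha, of succinate dehydrogenase, differed by 0.83 and 0.71, Ndufs1 and Ndufa11 of complex I by 0.72 each, Cyc1, cytochrome c1, by 0.69, Cox5a by 0.64 and Atp5a1, of the catalytic head of ATP synthase, by 0.72. Values for Sdha were 2.86 in Old_AL and 3.57 in Old_CR, and 3.38 in Adult_AL and 3.85 in Adult_CR. Old_AL was the lowest of the 4 arrays for 70 of the 81 genes, against 34.1% of all genes. The median relative to the mean of the 15-month arrays was -0.45 in Old_AL and -0.01 in Old_CR. That mean joins 2 diets that also differed, and Adult_CR was the highest of the 4 arrays for 71 genes. Medians of CR minus AL at 15 months ran from 0.44 for complex II to 0.58 for complex III. For complex I the median level was 5.57 in Adult_AL, 6.15 in Adult_CR, 5.49 in Old_AL and 5.93 in Old_CR. In each of these complexes the median difference at 22 months stayed above 0 under every scaling, filter and correction tried. Their size depended on the scaling. Under quantile scaling the medians were 0.20 for complex III, 0.17 for complex IV and 0.14 for ATP synthase, the lowest. With the deposited values the same lists were at 0.27, 0.22 and 0.19. The median of all genes was 0.07 under quantile scaling and 0.06 with the deposited values.

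Start regions of a pair of these genes are shown as examples of a group whose members differed alike. They were picked, after their values were seen, from those that hold the element named next. They are given on build GRCm38.p6 with the same span. Sdha lies at chr13:74350191-74350490 on the minus strand and Ndufa11 at chr17:56717512-56717811 on the plus strand. Capitals mark the core of the element of NRF1, a regulator of respiratory genes, written as GCGCNN followed by GCGC and reading the same on both strands.
Sdha: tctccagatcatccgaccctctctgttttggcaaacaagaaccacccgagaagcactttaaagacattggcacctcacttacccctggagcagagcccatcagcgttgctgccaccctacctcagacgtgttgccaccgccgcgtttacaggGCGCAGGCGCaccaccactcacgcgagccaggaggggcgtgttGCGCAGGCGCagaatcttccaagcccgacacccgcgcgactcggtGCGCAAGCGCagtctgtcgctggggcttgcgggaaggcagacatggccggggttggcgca
Ndufa11: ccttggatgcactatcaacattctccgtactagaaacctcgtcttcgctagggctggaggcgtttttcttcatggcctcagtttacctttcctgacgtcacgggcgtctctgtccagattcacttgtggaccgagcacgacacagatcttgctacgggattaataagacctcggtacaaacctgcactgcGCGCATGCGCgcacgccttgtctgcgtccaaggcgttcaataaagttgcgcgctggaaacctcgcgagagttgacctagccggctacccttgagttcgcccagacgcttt
Of the 68 genes of these complexes with an entry, 19 held the core (27.9%), against 11.4% of the measured genes and 6.43% of all starts. The motif TCAAGGTCA, bound by the estrogen-related receptors and searched on both strands, was in 2 of the 68 (2.94%) and in 0.34% of the measured genes.

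Fuel and contraction genes followed the respiratory chain. The tricarboxylic acid cycle and pyruvate dehydrogenase list had a median of 0.48 over 26 genes. Pdp2, the phosphatase that activates pyruvate dehydrogenase, was higher by 1.18 (-1.74 in Old_AL, -0.57 in Old_CR), and Pdk3, a kinase that inactivates it, was lower by 1.54. The 26 genes of fatty acid uptake and oxidation had a median of 0.48, 24 of them above 0 and none called. Eci1 and Acadm, enzymes of beta-oxidation, differed by 0.90 and 0.87. Among 23 genes of glycolysis and glucose uptake, with a median of 0.41, only Pfkfb2, which makes the activator of phosphofructokinase in heart, was called, higher by 1.16. Ppargc1a, a coactivator of mitochondrial genes, differed by 0.93, and Ppara, the receptor for fatty acids, by 0.91, with the first at 1.55 on both 15-month arrays. Ehhadh, a peroxisomal oxidation enzyme and target of that receptor, was higher by 1.34. It was the only call among the 18 genes of the PPAR and fasting response, whose median was 0.20 and of which 66.7% were above 0, against 62.9% of all genes. Mitochondrial ribosomal proteins were above 0 in 68 of 76, with a median of 0.38, and cytosolic ones in 67 of 78, with 0.17, a median that was -0.03 under quantile scaling and with the deposited values.

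Markers of the labelled tissue were present. So were male germ cell genes, with 73 of 83 spermatid genes and 40 of 47 spermatocyte and spermatogonia genes measured. All 20 ventricular cardiomyocyte markers were above background on both arrays, at levels from -1.47 for Irx4 to 8.76 for Myl2 in Old_AL. All 20 also stood higher in Old_CR, by 0.12 for Myh7 to 0.81 for Ckm, with a median of 0.50 and no call. That median was 0.24 under quantile scaling and 0.28 with the deposited values. Their summed level was 2725 in Adult_AL, 4129 in Adult_CR, 2451 in Old_AL and 3440 in Old_CR, so the AL pools read lower at both ages. The filament and Z disc genes had a median of 0.39 over 29, with Actn2, which anchors thin filaments, at 0.97. Of 22 calcium handling genes, 1 was lower (4.55%, near the 3.99% of all genes). It was Fkbp1b, which stabilises the calcium release channel, by 1.29 ± 0.44. Of 24 channel genes, 1 was higher (4.17%, against 1.90% of all genes). It was Kcnj5, a subunit of an inward rectifier, by 1.04. Of the markers of hypertrophy none of 9 was called, with Nppa at 0.50, Nppb at -0.59, Myh7 at 0.12 and Acta1 at 0.04. Markers of endothelium (19 measured), smooth muscle (16), macrophages (16) and lymphocytes (16) held no call, with medians from -0.09 to 0.09. Neutrophil markers S100a8 and S100a9, the subunits of calprotectin, were higher by 1.31 and 1.30, and 4 of the 12 listed were above background on neither array.

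**Figure D4:**
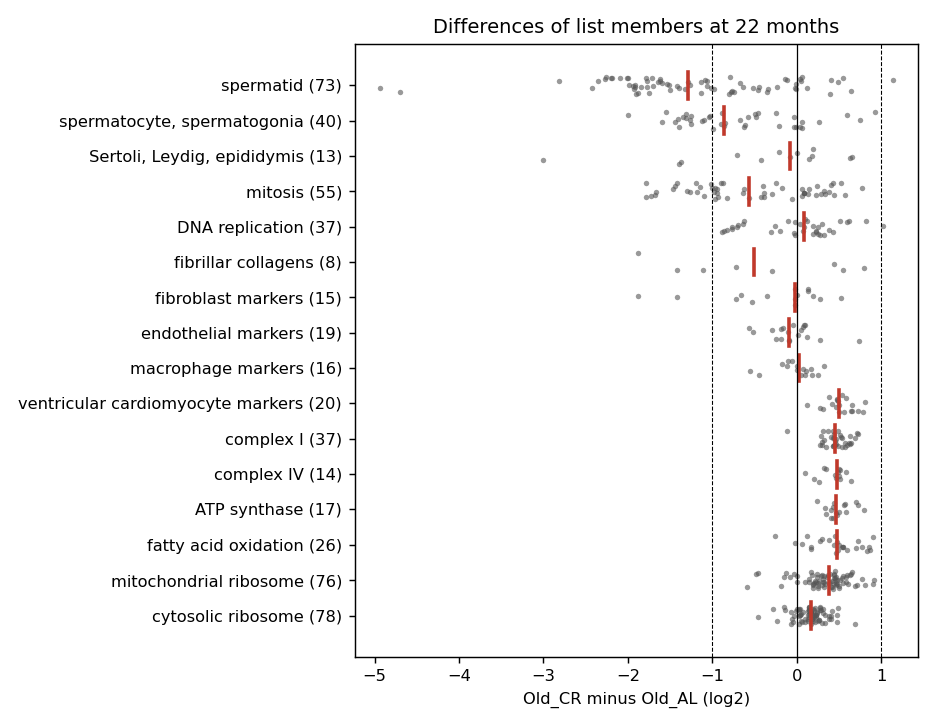
Difference between the CR and AL pools of 22 months (log2, x axis) for each measured member of 16 gene lists (rows, with the number of members), 1 point for each gene and a red bar at the list's median. The spermatid list centres at -1.29, the mitosis list at -0.56 and the fibrillar collagens at -0.51, and the lists of cardiomyocyte and energy genes from the ventricular markers to the mitochondrial ribosome centre between 0.38 and 0.50.

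Genes of cell division were lower more often than those of DNA copying, a difference that was not tested. Of 55 measured genes of mitosis, 16 were lower (29.1%, against 3.99% of all genes) and none higher, with a median of -0.56. Nek2, a centrosome kinase, was at 1.42 in Old_AL and -0.36 in Old_CR, Plk1, the polo kinase of mitotic entry, was at 0.50 and -1.23, and Espl1, the protease that parts sister chromatids, was 3.44-fold lower. Pbk fell by 1.67, Kif2c, a motor that frees microtubules from centromeres, by 1.66. Bub1, a checkpoint kinase, fell by 1.26. Of 37 replication genes none was lower, and Pole, a replicative polymerase, was higher by 1.02. Pcna, the polymerase clamp, differed by -0.88. At 15 months the mitosis list had a median of 0.54, higher with CR in direction, unlike the germ cell lists. Several of these genes also act in meiosis, and the spermatocyte list fell beside them, with 16 of 40 lower. Its part in the mitosis falls was not tested.

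Regulators of growth, stress and the day cycle held from 0 to 3 calls in a list. For AMPK and FOXO, the energy sensor and the transcription factors the study followed, none of 11 was called. Foxo3 differed by 0.47 ± 0.27, Foxo1 by 0.41 and Prkaa2, the catalytic subunit of heart muscle, by 0.62. None of 39 autophagy genes was called, with Becn1 at -0.91 ± 0.27, Sqstm1 at 0.41 and Map1lc3b at 0.36. Of 31 genes of insulin, IGF and mTOR signalling, 3 were higher (9.68%, against 1.90% of all genes) and none lower. Igfbp4, an IGF-binding protein, was higher by 1.07, Igfbp3, of the same family, by 1.02 and Pik3r1, the regulatory subunit of PI3 kinase, by 1.01. Igfbp4 was above both 15-month arrays in Old_CR, and Pik3r1 below both in Old_AL. Of 13 clock genes of the output and negative arm, 2 were higher (15.4%, against 1.90% of all genes) and 1 lower (7.69%, against 3.99%). Hlf and Tef, which drive timed transcription, were higher by 1.18 and 1.11, and Per3, of the negative arm, was lower by 1.12. The median of that list was 0.34, and 0.04 with no filter on dim probes. Of 6 clock genes of the positive arm, 1 was higher, by 1.29. Hour of sacrifice was not given in the sources used here. Immediate early genes had 2 of 22 lower (9.09%, against 3.99% of all genes), with a median of -0.26. The 2 were Arc, by 1.71, and Egr2, by 1.17. In the unfolded protein response, Manf, a stress-induced secreted factor, fell by 1.18 and the sensor Atf6 was higher by 1.19 ± 0.44. Mt2, a metallothionein, fell by 1.22, and Gsta3, a glutathione transferase, rose by 1.30 with both probes past 2-fold.

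Among immune genes, 3 of 27 interferon genes were higher (11.1%, against 1.90% of all genes) and none was lower, with a median of 0.18. Ifih1, the sensor of long double-stranded RNA, was at -1.04 in Old_AL and 0.88 in Old_CR (1.92 ± 0.10), against -0.69 and 0.00 at 15 months, so the pools lay on either side of the earlier levels. With its dim probes averaged in, Ifih1 was higher by 1.07. Gbp6 and Ifi44 were higher by 1.08 and 1.01. Of 39 chemokines, cytokines and receptors, 1 was higher and 2 were lower. These shares, 2.56% and 5.13%, were near those of all genes, 1.90% and 3.99%. Lif was higher by 1.19, and Ccl2, which draws monocytes, and Cxcl14 were lower by 1.18 and 1.04. No complement gene of 19 and no MHC gene of 16 was called.

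The largest rises were scattered and mostly dim. Slc15a2, a peptide transporter, was at -3.82 in Old_AL and -0.35 in Old_CR, 11.04-fold higher (3.47 ± 0.27). It was at -1.40 in Adult_AL and -5.87 in Adult_CR, where its probe was not well above background, so the AL pool was the brighter one at 15 months. Sbk3, a muscle kinase, was at -3.10 and -0.65, 5.43-fold higher, with both 15-month arrays between -0.32 and -1.26, so Old_AL was the low array. Irx2 and Irx1, neighbouring homeobox genes of the ventricle, were higher by 2.01 and 1.70. Irx2 was at -2.46 in Old_AL and -0.45 in Old_CR on the probe that was above background, and it was higher by 0.98, short of 2-fold, when its dim probes were averaged in. Ccdc137 rose from 0.12 to 2.13 and was above both 15-month arrays in Old_CR. Dbh, which makes noradrenaline, rose from -2.35 to -0.76 and H2bc21, a histone, from -3.11 to -1.32. Rpe65, of the visual cycle, rose by 1.94, and Barx1, a homeobox gene, by 1.60. Olfactory receptors were higher in 14 of 289 (4.84%) and lower in none, and beta-defensins were higher in 5 of 19 (26.3%), against 1.90% of all genes. The defensins were led by Defb26 (1.98), and Defb34, Defb7 and Defb15 were above both 15-month arrays in each 22-month pool.

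**Figure D5:**
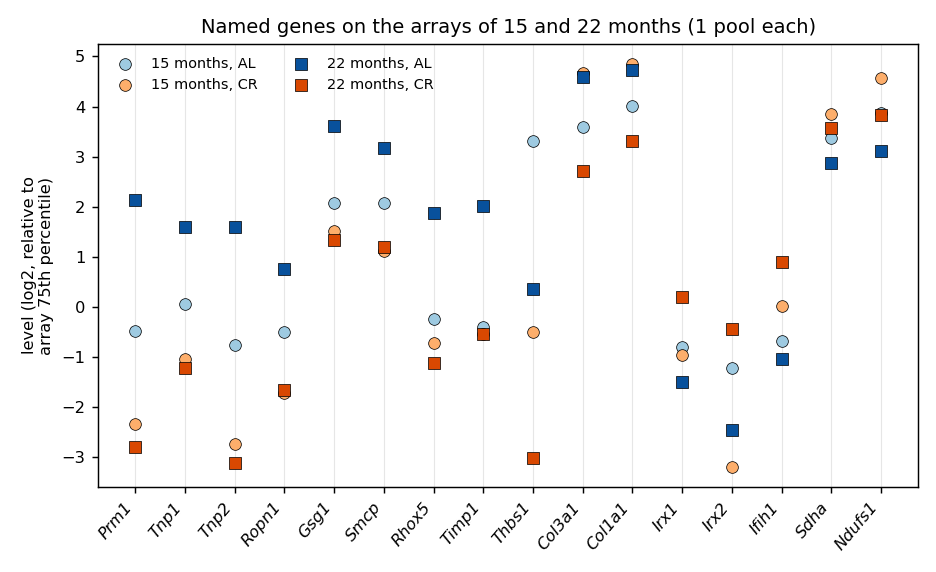
Level (y axis, log2 relative to the 75th percentile of the array) of 16 named genes (x axis) on the arrays of 15 months (circles) and 22 months (squares), AL in blue and CR in orange, 1 pool for each point. For Prm1, Tnp2 and Rhox5 the 22-month AL pool lies far above the other 3, for Col3a1 the 22-month CR pool lies lowest, and for Irx2 the order of the diets turns between the ages.

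A gene above background in only 1 pool has a bound in place of a fold, the bright array's level against the higher of the dim probe's own level and the lowest level well above background on that array. Of 1113 genes above background in Old_AL alone, 171 had a bound of 2-fold or more (15.4%), and of 602 in Old_CR alone, 140 (23.3%). Asf1a, a histone chaperone, was at least 9.10-fold lower in Old_CR and Rnf133, a testis ubiquitin ligase, at least 7.35-fold. Cabs1, a spermatid calcium-binding protein, was at least 6.75-fold lower and H2al2a, a histone variant of spermatids, at least 5.24-fold. Tas2r117, a bitter taste receptor, was at least 6.87-fold lower. In the other direction, Kcns2, a modifier of potassium channels, was at least 11.4-fold higher in Old_CR, and Clec4f, a lectin of liver macrophages, and Vps53, of endosome transport, at least 4.24-fold and 3.88-fold. Snhg1 and Olfr556 were at least 3.72-fold and 3.71-fold higher. The bright level of each of these genes was below the 75th percentile of its array.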

How the data were processed

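RNA of 6 pools of mouse ventricle, 1 for each group, was amplified, labelled with Cy3 and hybridised to single-colour Agilent arrays. The authors deposited scanner tables of spot intensity made with Agilent Feature Extraction 11.0.1.1, and a table of log2 values whose scaling was given neither in the labels nor in the methods. The array design names build mm9, and no coordinates of it were used. From the processed intensity, outlier spots and controls were left out, each array was divided by its 75th percentile and log2 was taken. Spots of a probe were averaged, then the probes of a gene that were well above background on both 22-month arrays (at least 50% of spots). RefSeq accessions were named through RefSeq GRCm38.p6, and sequences came from the same release.

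With 1 array per group no test was run. A gene was called at 2-fold or more, and lists were described by counts and medians beside those of all genes. The spot error is the SD of probes printed 5 or more times, pooled in 5 signal classes. Named genes were the 15 largest rises and falls with a symbol whose probes all passed 2-fold, leading members of each list, the 5 largest bounds and the 5 most even several-probe genes in each direction. Not all are described, and other genes named were chosen after their values were seen. The members and the 73 lists were chosen with earlier results of these data known, and 4 lists and the paralog pairs were added after the values were seen. Steps were tested on simulated data. Python 3.11.15, numpy 2.4.6, pandas 2.3.3, R 4.3.3 and limma 3.58.1 were used. Alternatives were median and quantile scaling, normexp background correction (offset 50), other probe filters, the brightest probe, outlier spots kept and the deposited log2 values. The number of arrays limits the precision. Results for a few genes are not reported here.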

Additional observations from a re-analysis of the deposited data

Results flagged for a closer look

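For 5 results the pools of 15 and 22 months differed in opposite directions between the diets. In each case the difference between the ages was not tested, and age and slide cannot be told apart. Irx2, a homeobox gene of the ventricle, was lower with CR by 1.99 at 15 months (-1.99) and higher by 2.01 at 22 months, a rise that was 0.98 with its dim probes averaged in. The median difference of the fibrillar collagens was 0.52 at 15 months and -0.51 at 22 months, and that of the mitosis genes was 0.54 and -0.56. Neutrophil markers had medians of -0.81 at 15 months and 0.51 at 22 months. Erythroid markers had medians of -0.63 and 0.39. The values for these blood cell markers are given because the heart was bled by cardiac puncture, and the part of residual blood was not tested.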

How the results depend on the processing

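The counts moved with the fold threshold and with how dim probes were treated. Against 424 higher and 889 lower genes, normexp correction with an offset of 50 gave 141 and 353, no filter on dim probes 1240 and 1465, a threshold of 3-fold 25 and 229, and a signal of at least 100 on both arrays, a choice made after seeing the data, 200 and 417. Under normexp, Old_AL alone stood apart from the 15-month arrays for 129 of the lower genes and Old_CR alone for 3, and for the higher genes the numbers were 3 and 60. With no filter they were 479 and 84 for the lower genes and 235 and 324 for the higher. With the deposited values, Old_AL alone stood apart for 16 of the higher genes. The cause was not tested. Under the remaining settings the counts were within 1.5 times the reported ones, from 297 to 473 higher and from 761 to 1115 lower. The 40 genes named by rank kept their sign under every setting that measured them, which was 31 of them when a signal above background was required on all 4 arrays, and 23 stayed past 2-fold under normexp. List medians kept their sign for 73 to 77 of 77 lists in each setting. With 1 array for each group there was no replicate to leave out and no measure of the spread between mice. No paired analysis was possible because each group was 1 pool. Signal over background limits the dim genes, which include most of the largest rises.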
